A study of Homo sapiens with 4 samples.

Results

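NRF2 ChIP-Seq summits were examined around the microRNA cluster of MIR23A, MIR27A and MIR24-2 on chromosome 19, in 4 libraries of MDA-MB-231 mammospheres. A summit is the base of highest signal in a peak. MDA-MB-231 is a human breast cancer cell line, and its mammospheres are spheres grown in suspension, in which cancer stem cells are enriched. Mammospheres of SC (scrambled control), whose genotype the labels give as parental, and of ZMYND8 KO, in which the histone reader ZMYND8 was knocked out, gave 2 libraries each, all precipitated with the same NRF2 antibody. All came from 1 cell line, and nothing in the sources used here says that the replicates were separate cultures or which knockout clone was used. The members were the summits of each list in chr19:13925000-13975000 of hg19, a window of 50 kb around the cluster at chr19:13947101-13947473. Positions were read as hg19, 1 of the 2 builds that the submitters' processing notes name. The lists hold no measure of ZMYND8 itself, so the knockout was not checked. This locus was chosen by the summits called there in these same lists, so the numbers of summits, their scores and their recurrence are given as a description, with no test. The window held 19 of the 9717 summits of the series. There were 5 of 2030 in SC replicate 1, 12 of 6816 in SC replicate 2, and each ZMYND8 KO list held 1, of 394 in replicate 1 and of 477 in replicate 2.

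NRF2 is the transcription factor that switches on antioxidant and detoxification genes. It binds antioxidant response elements together with a small MAF protein. MicroRNAs are cut out of longer primary transcripts, first in the nucleus and then in the cytoplasm, and repress mRNAs that pair with their seed, the bases near their 5′ end. The microRNAs of this cluster are made from a shared primary transcript and are widely expressed, in breast cancer cells among others. Whether their level changed was not measured in these libraries.

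In the RefSeq tables all 3 microRNA genes lie on the minus strand, so upstream of the cluster means higher positions. Their order in the direction of transcription is MIR23A (gene ID 407010), MIR27A (407018) and MIR24-2 (407013). The hairpins are 73, 78 and 73 bases long in that order, and the cluster spans 373 bp. The long noncoding RNA gene MIR23AHG (284454) contains all 3 of them. ZSWIM4, LOC107985334 and RN7SL619P are the nearest genes on the downstream side. On the upstream side they are NANOS3, a gene of germ cell development, and the microRNA genes MIR181C and MIR181D. These tables use GRCh38 and no hg19 annotation was given, so neither the start of MIR23AHG nor the exons and introns of the region were placed among the summits.

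The mature products best known from each gene are given to say what the locus makes. They are from RefSeq (GRCh38.p14), written 5′ to 3′, with the seed (bases 2 to 8) in capitals.
hsa-miR-23a-3p: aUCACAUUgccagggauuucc
hsa-miR-27a-3p: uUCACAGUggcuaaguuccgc
hsa-miR-24-3p: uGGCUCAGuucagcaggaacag
The 3 seeds differ from each other. Each recurs at another gene of the table of 2545 mature microRNA entries: the seed of miR-23a-3p in miR-23b-3p and miR-23c, that of miR-27a-3p in miR-27b-3p and miR-9985, and that of miR-24-3p in the product of MIR24-1, whose sequence is identical. A level of miR-24-3p would therefore not tell MIR24-2 from MIR24-1, whereas a ChIP-Seq summit belongs to a place in the genome.

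A single site was called in every library, and it lay upstream of MIR23A. Its summit stood at 13957821 in SC replicate 1, 13957865 in SC replicate 2, and in ZMYND8 KO at 13957810 (replicate 1) and 13957807 (replicate 2). These positions span 58 bp, and those of the ZMYND8 KO libraries are 3 bp apart. The site is 10348, 10392, 10337 and 10334 bp upstream of the cluster in the same order.

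The score of this site was 19.8 in SC replicate 1, 15.5 in SC replicate 2, and in ZMYND8 KO it was 10.4 (replicate 1) and 11.0 (replicate 2). The score is the peak caller's value, taken to be −log10 of its q-value, and it grows with the depth of a library, which is unknown here. Both ZMYND8 KO scores lay below both SC scores, with means of 10.7 ± 0.42 and 17.7 ± 3.0 (SD, n = 2 each). Of the 239 sites of the genome called in all 4 libraries, 62.8% showed the same order, so the order is the common one among such sites. The difference of the means was -7.00 at this site and -8.83 at the median of these sites, of which 140 had a larger fall.

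By rank, the site stood at 191 of 2030 in SC replicate 1 and at 329 of 6816 in SC replicate 2. In ZMYND8 KO it stood at 183 of 394 (replicate 1) and at 181 of 477 (replicate 2). In the longer SC lists it therefore belonged to the top 9.41% and 4.83%, and in the shorter ZMYND8 KO lists to the top 46.4% and 37.9%. It was the highest-scoring summit of the window in each SC list. Among the 239 sites called in all libraries it lay below the median mean score, which was 23.6 in SC and 13.0 in ZMYND8 KO. Of these sites, 149 had a higher mean SC score and 151 a higher mean ZMYND8 KO score.

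**Figure D1:**
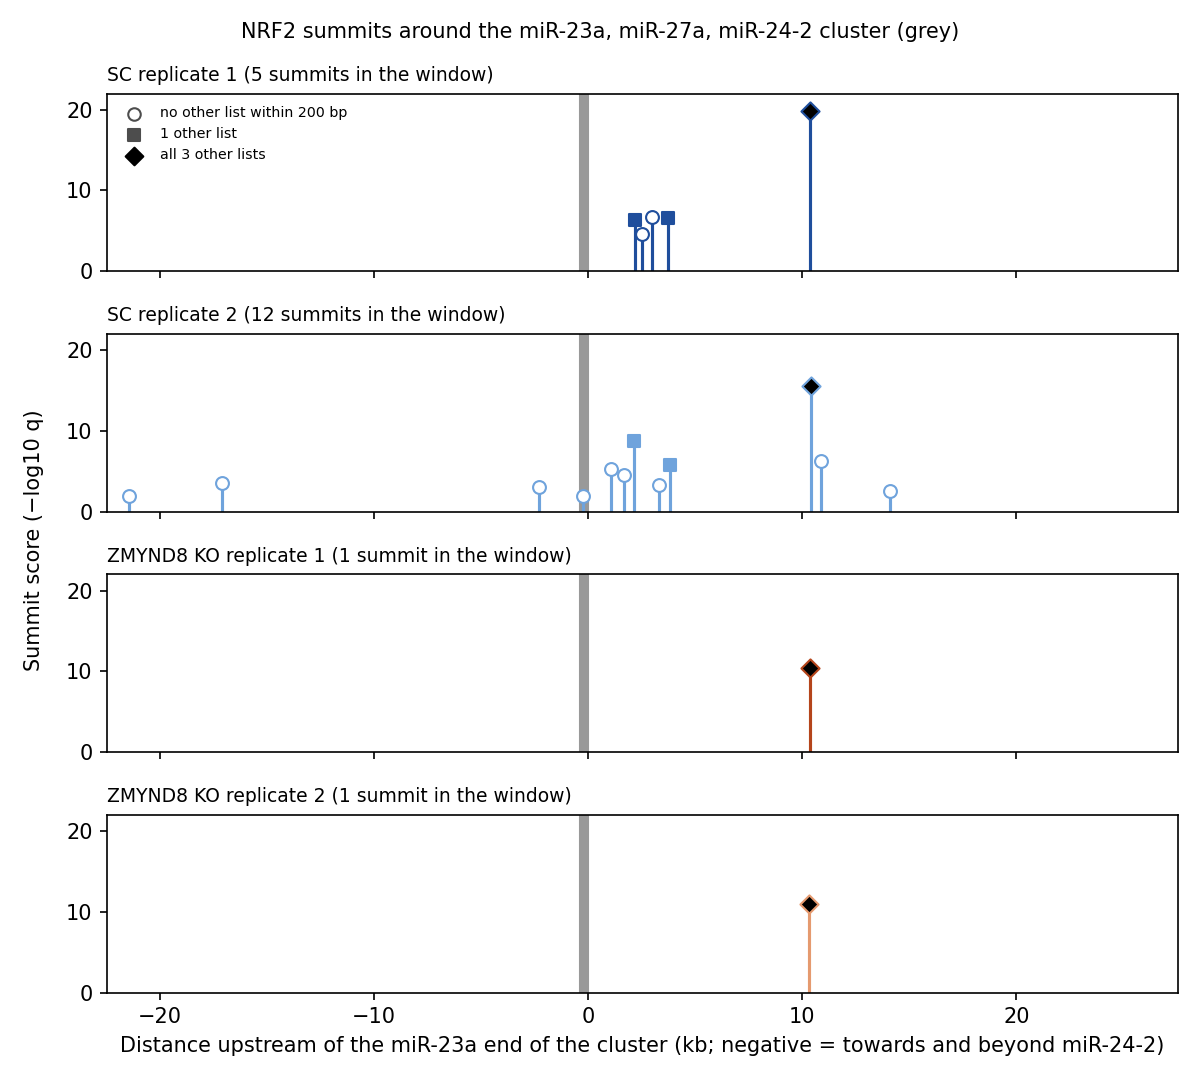
Summits of each library in the 50 kb window, by distance from the cluster (x axis, kb, positive values upstream of MIR23A, the cluster itself in grey) and score (y axis, −log10 q). Diamonds mark summits with a counterpart within 200 bp in all 3 other lists, squares those with a counterpart in 1 other list and open circles those with none; the diamonds lie 10334 to 10392 bp upstream.

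Closer to the cluster, a group of weaker summits was called in the SC lists only. SC replicate 1 had 4 of them, at 13949637, 13949990, 13950467 and 13951210, with scores of 6.32, 4.66, 6.69 and 6.60. SC replicate 2 had 5, at 13948515, 13949121, 13949606, 13950800 and 13951291, with scores of 5.23, 4.59, 8.76, 3.26 and 5.74. In SC replicate 1 this group lay 2164 to 3737 bp upstream of the cluster, and in SC replicate 2 it lay 1042 to 3818 bp upstream. The nearest ZMYND8 KO summit was that of the site called in every library, at least 6516 bp away.

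The replicates placed this group in the same stretch but did not agree on each summit. Within 200 bp they shared the pair at 13949637 and 13949606, 31 bp apart, and the pair at 13951210 and 13951291, 81 bp apart. The SC replicate 1 summits at 13949990 and 13950467 were 384 and 333 bp from the nearest summit of SC replicate 2. Ranks were 913 to 1362 of 2030 in SC replicate 1, near the middle of that list. In SC replicate 2 they ran from 729, for the summit at 13949606, to 4528 of 6816.

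SC replicate 2 alone had summits at and beyond the other end of the cluster. Its summit at 13947239 lay within the cluster, 138 bp from its MIR24-2 end, with a score of 1.90 and rank 6263 of 6816. Downstream it had summits at 13944809, 13930010 and 13925668, which are 2292, 17091 and 21433 bp from the cluster and scored 3.004, 3.52 and 1.90. Farther upstream, summits at 13958350 (score 6.28) and 13961551 (2.50) lay beyond the site called in every library. Only the summit at 13958350 was close to it, 485 bp from the summit of the same list. None of these 6 had a counterpart within 200 bp in another list. By side, SC replicate 1 had 5 summits upstream and 0 downstream, and SC replicate 2 had 8 upstream, 1 within the cluster and 3 downstream.

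Spacing differed between the SC lists. Neighbouring summits of SC replicate 1 were 353, 477, 743 and 6611 bp apart. In SC replicate 2 the gaps ran from 485 to 14799 bp with a median of 1276 bp. A gap of about the same size separated the weaker group from the site called in every library in both SC lists, 6611 and 6574 bp. Each ZMYND8 KO list had a single summit and so no gap.

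Just inside the window, the summit of SC replicate 2 at 13925668 was the nearest to its edge. Just outside, SC replicate 2 had a summit at 13915539 (score 2.27), 9461 bp below the window, and at 13991396 (score 3.07), 16396 bp above it. The nearest outside summits of SC replicate 1 were 84489 bp below, at 13840511 with a score of 6.33, and 301127 bp above, at 14276127 with a score of 4.03. Those of the ZMYND8 KO lists were at least 1346312 bp away, so the site upstream of MIR23A was isolated in both. A lone summit was usual in these short lists. Of the 50 kb windows with a summit, 234 of 266 (replicate 1) and 315 of 350 (replicate 2) held only 1.

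Chained within 200 bp, the 19 summits made 14 sites. Of these 1 was called in all 4 libraries, 2 in both SC libraries alone, 2 in SC replicate 1 alone and 9 in SC replicate 2 alone. Of the 7708 sites of the series, 3.10% were called in all libraries, 10.03% in both SC libraries alone, 10.3% in SC replicate 1 alone and 72.0% in SC replicate 2 alone.

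Recurrence between the SC lists was close to that of the whole lists. Of the window's summits, 3 of 5 in SC replicate 1 recurred within 200 bp in SC replicate 2 (60%, 95% exact binomial interval 14.7% to 94.7%), against 58.7% of that whole list. In the other direction it was 3 of 12 (25%, 5.49% to 57.2%), against 17.6%. The intervals here and in the next paragraph cover counting error only and treat summits as independent, which neighbours are not. Recurring summits of SC replicate 2 scored 5.74, 8.76 and 15.5, and the 9 others from 1.90 to 6.28.

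Recurrence in ZMYND8 KO was limited to the site called in every library. It made up 1 of 5 window summits of SC replicate 1 (20%, 0.505% to 71.6%), against 22.2% of the whole list, and 1 of 12 of SC replicate 2 (8.33%, 0.211% to 38.5%), against 7.00%. The background differs strongly with the score. Among SC replicate 1 summits with a score of at least 10, 64.3% had a ZMYND8 KO summit within 200 bp, and among those under 10 it was 9.44%. For SC replicate 2 the shares were 55.4% and 2.18%. At the cluster, the 1 summit of each SC list with a score of at least 10 had a ZMYND8 KO counterpart, and 0 of the 4 and 0 of the 11 under 10 did. Weak SC summits without a ZMYND8 KO counterpart were thus the usual case in both SC lists.

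Both ZMYND8 KO summits had a counterpart in each of the other 3 lists. The share of whole lists with a counterpart in all 3 others was not computed, so the shares that follow are looser measures. Over the whole lists, 91.1% and 88.1% of the summits of ZMYND8 KO replicates 1 and 2 had a counterpart in either SC list. The ZMYND8 KO replicates shared 68.8% of replicate 1 and 56.8% of replicate 2 with each other.

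**Figure D2:**
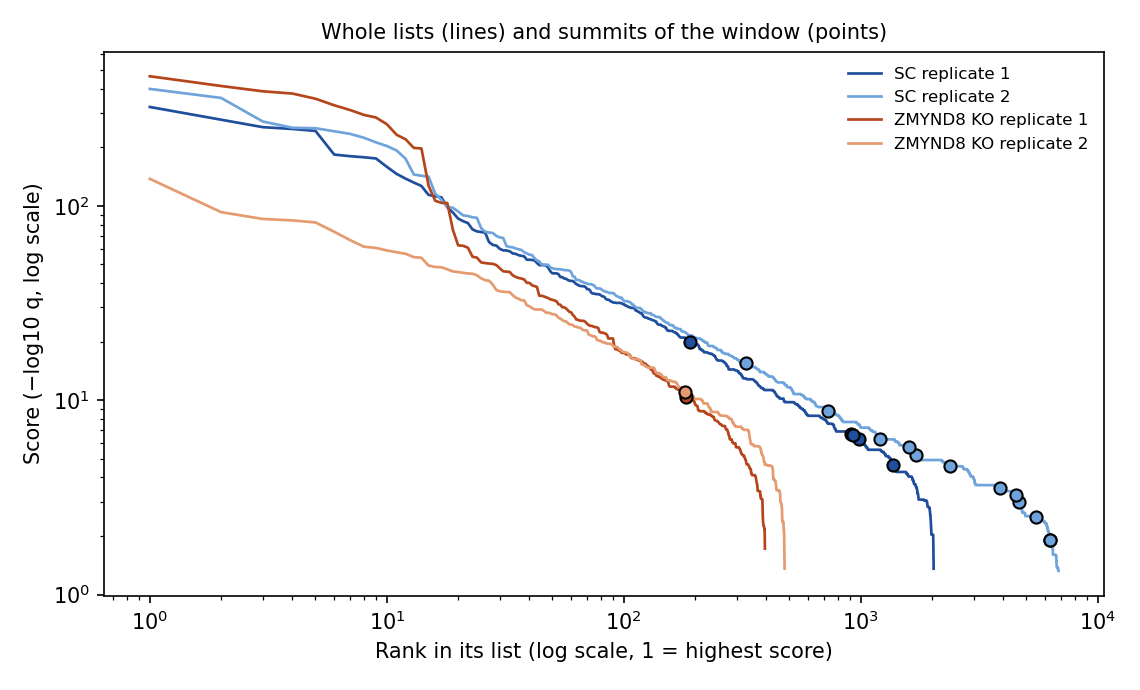
Score (y axis, −log10 q, log scale) against rank (x axis, log scale) for all summits of each list (lines), with the window's summits as points. The site called in every library is the leftmost point of each list, at ranks 191, 329, 183 and 181, and the remaining SC points lie at rank 729 or beyond, past the end of both ZMYND8 KO lists.

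The window held 8.5 ± 4.95 summits in SC and 1 ± 0 in ZMYND8 KO (SD, n = 2 each), a ratio of the means of 0.118. Single libraries gave ratios from 0.0833 to 0.2, and the mean length of the lists gave 0.0985. As a share of its list the window took up 0.246% in SC replicate 1 (95% exact binomial interval 0.0800% to 0.574%), 0.176% in SC replicate 2 (0.0910% to 0.307%), and in ZMYND8 KO 0.254% in replicate 1 (0.00643% to 1.41%) and 0.210% in replicate 2 (0.00531% to 1.16%). These intervals overlap, and they cover counting error only and treat summits as independent, which neighbours are not. At the share of SC replicates 1 and 2, ZMYND8 KO replicate 1 would hold 0.970 and 0.694 summits here, and ZMYND8 KO replicate 2 would hold 1.17 and 0.840. With about 1 summit at these shares, only a count of 0 would have been smaller, and it could hardly be told from 1. The counts therefore cannot show whether there was a reduction beyond the shorter ZMYND8 KO lists.

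Shortened to the 394 highest-scoring summits, the length of the shortest list, each of the 4 lists held 1 summit in the window, that of the site upstream of MIR23A. A score of at least 10 also left that 1 summit in each list. With the 300 highest-scoring summits the counts were 1, 0, 1 and 1, because the site ranked 329 in SC replicate 2. The part of read depth and of the strength of enrichment in the whole-list counts was not tested, since the lists give neither.

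**Figure D3:**
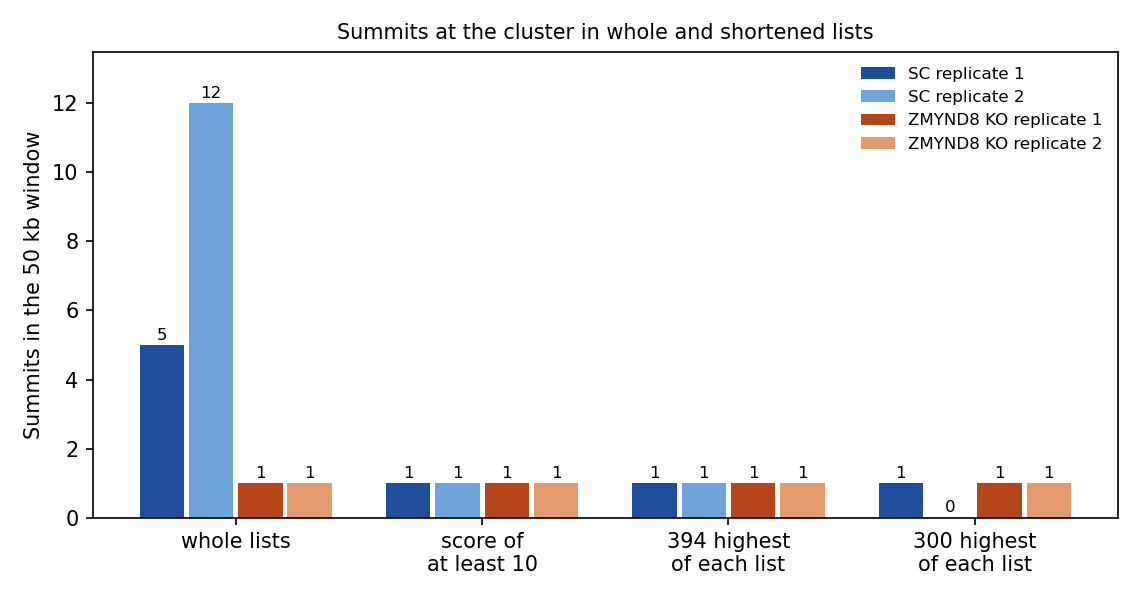
Number of summits in the 50 kb window (y axis, from 0) for each library in whole lists, with a score of at least 10, and in lists shortened to their 394 or 300 highest-scoring summits. Whole lists hold 5, 12, 1 and 1 summits, and the 394 highest hold 1 each.

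Among 50 kb windows of the genome, tiled from its own start, the locus was dense in both SC lists. It was chosen for its summits in these lists, so this density is a description and not a finding. In SC replicate 1, 16 of the 1423 windows with a summit held more than its 5 summits, and 12 others held as many. In SC replicate 2, 8 of 4537 held more than its 12, and 4 others held as many. In the ZMYND8 KO lists it was among the 234 of 266 and 315 of 350 windows with a single summit.

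Windows with at least 5 summits in both SC lists numbered 25, of which the miR-23a cluster was 1. The cutoff of 5 was the cluster's own lower SC count. Windows chosen by their SC counts tend to hold fewer summits in the shorter ZMYND8 KO lists. In 9 of the 24 others each ZMYND8 KO list had at most 1 summit, among them 5 with exactly 1 in both and 2 with 0 in both. At the other end, 10 held 5 or more in each ZMYND8 KO list. The windows elsewhere with the most summits in their poorest list were chr2:92275000-92325000, with 27 to 31 summits in every list, chr15:75675000-75725000, with 13 to 15, and chr8:46825000-46875000, with 9 to 13. A window on chromosome X also held at least 9 in each. A few such windows held about as many summits in ZMYND8 KO as in SC, and the miR-23a cluster held fewer. Its counts cannot show a reduction beyond the shorter ZMYND8 KO lists. No hg19 annotation was given, so whether the windows with similar counts lie by centromeres or in repeats was not examined. They may be unlike a gene locus. Whether their summits are NRF2 binding kept without ZMYND8 was not tested. The window chr8:130975000-131025000, with the same SC mean of 8.5 as the cluster (6 and 11 summits), held 1 in each ZMYND8 KO list.

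**Figure D4:**
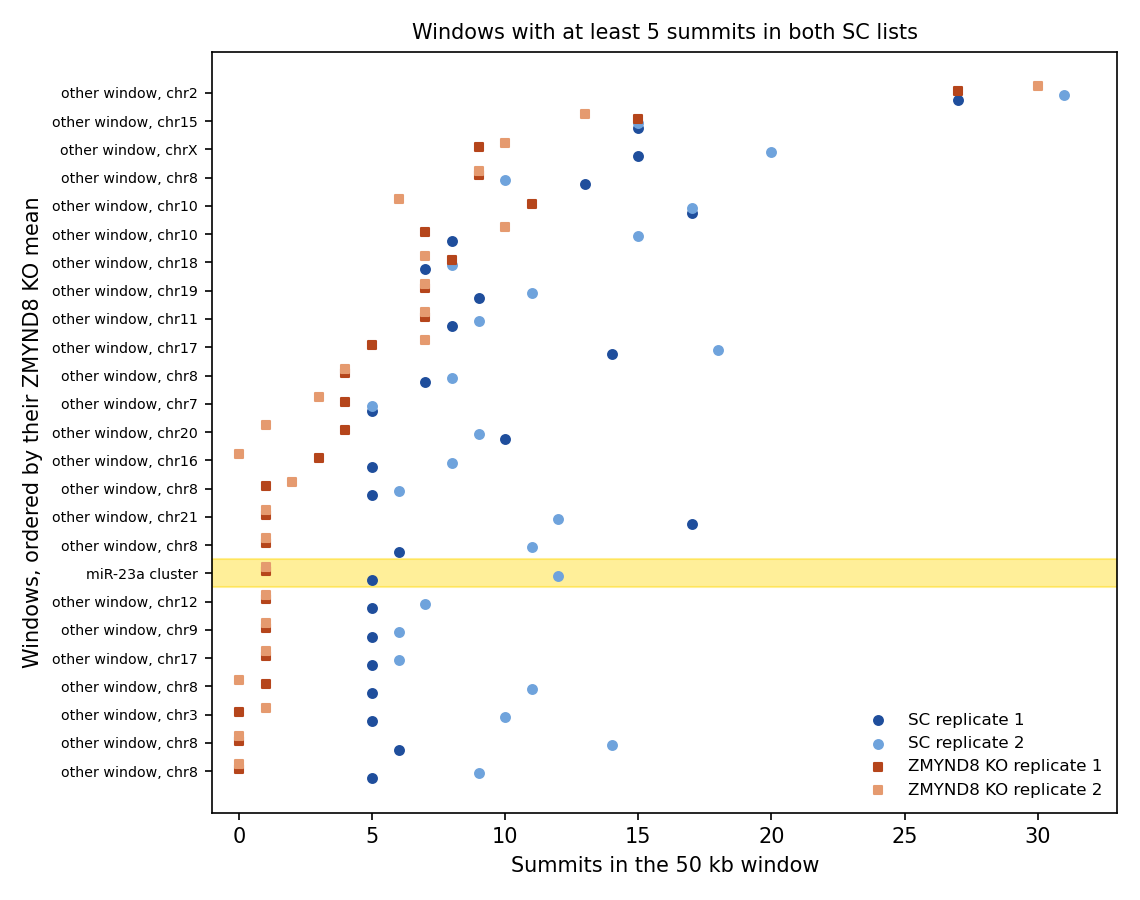
Summits per library (x axis) in each of the 25 windows of 50 kb with at least 5 summits in both SC lists (rows, ordered by their ZMYND8 KO mean), with circles for SC and squares for ZMYND8 KO. The row of the miR-23a cluster is shaded, with 5 and 12 SC summits and 1 in each ZMYND8 KO list.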

How the data were processed

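NRF2 ChIP-Seq summit lists of 4 libraries were used, grouped by their titles. The submitters' processing notes name FastQC 0.11.2, Bowtie2 2.2.3, Picard 1.127 and MACS2 2.0.10, and the builds hg19 and hg38 without a role. The authors called peaks in each library separately. The deposited lists give a summit for every peak and its score, taken to be −log10 of the q-value because the lowest lay just above that of 0.05. No input library, read count or peak width was used here, so depth is unknown and the precision it gives could not be computed.

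Positions (counted from 1) were read as hg19. As a check, GRCh38 transcription start sites were moved in steps of 100 bp up to 300 kb: of 248 chromosome 19 summits within 5 Mb of the cluster, 44 lay within 1000 bp of a start at a shift of 110700 to 110800 bp, 16 at no shift, 15 at the median shift, and at most 39 at shifts over 5 kb away. The cluster's hg19 position and the table's differ by 110814 bp. In GRCh38, 93 of all 9717 summits would lie beyond the last gene of their chromosome. The same count was not made for hg19, so this number cannot favour a build. The check by start sites leaves a margin of 44 against 39, so it is not decisive alone.

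Ranks give ties their best rank. Summits within 200 bp were counted as recurring or chained into sites, and 50 kb windows were tiled from the window's own start. No test was run. Summits named singly were those of sites in all libraries and the 5 highest of each list; the remaining window summits, MIR23AHG and the window on chromosome X were named after their values were seen. The members and lists were chosen with earlier results of these data known. Functions were tested on simulated data. The software was pandas 2.3.3, scipy 1.17.1, numpy 2.4.6 and, for figures, matplotlib 3.10.9, under Python 3.11.15.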

Additional observations from a re-analysis of the deposited data

How the results depend on the processing

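The counts at the cluster depended on which summits and how wide a window were taken. A score of at least 10 left 1 summit in SC replicate 1 and 1 in SC replicate 2 and gave a ratio of ZMYND8 KO to SC of 1, and the share of SC summits with a ZMYND8 KO counterpart was then 100% in both SC lists. The 300 highest-scoring summits left 1 and 0 in the SC lists, turned the ratio to 2 and gave a share of 100% in SC replicate 1. No share could be given for SC replicate 2. The 394 highest-scoring summits, a setting added after the data were seen, left 1 in each list and a ratio of 1. These settings drop the weak summits by construction. A window of 20 kb, which ends before the site called in every library, held 7 summits in SC replicate 2 and 0 in each ZMYND8 KO list, for a ratio of 0. Summits within 500 bp counted once left 3 in SC replicate 1. Leaving out each library in turn, the ratio ran from 0.0833 without SC replicate 1 to 0.2 without SC replicate 2.

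The site upstream of MIR23A was called in all libraries used under distances of 100 and 500 bp and without each library in turn. Of 71 recomputed values, 53 stayed within the spread or interval of the value given, among them all shares at distances of 100, 500 and 1000 bp and the ranks with windows tiled from an offset of 25 kb. Many of these intervals were too wide to be left. The ZMYND8 KO shares rest on 1 summit each, with an interval of 2.5% to 100%. In SC replicate 2 the share rose from 8.33% to 16.7% at 1000 bp, still within 0.211% to 38.5%. The tally therefore says little about stability. Libraries were not paired by replicate number, since no test was run and nothing in the labels ties libraries with the same number to each other. Unknown depth limits every count, and 2 libraries a group limit any comparison.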
